A study of Mus musculus with 16 samples.

Results

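Distal regions open in induced pluripotent stem cells (iPSC) and in no earlier stage of chemical reprogramming numbered 20411, out of 165616 merged open regions in all. They were selected on measured values: a merged region was kept when it overlapped an iPSC peak and no peak of days 0, 2, 4, 6, 8, 10 or 12, and lay more than 1 kb from both ends of every RefSeq protein-coding gene. Regions in the iPSC list alone made up 13.0% of all merged regions (21543), and 1132 of them were left out because they lay within 1 kb of a gene end. The remaining 20411 were 13.8% of the 147481 distal merged regions and 20411 of the 36374 distal regions of iPSC. These counts follow from the rule and are a description.

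The data are peak lists from ATAC-seq, in which the Tn5 transposase cuts accessible DNA and tags it for sequencing. The iPSC were derived by chemical reprogramming, without factor transgenes named in the labels, and were kept on feeder cells in a medium with LIF, CHIR99021 (an inhibitor of GSK3) and PD0325901 (an inhibitor of MEK). The earlier stages were cells after 2, 4, 6, 8, 10 and 12 days in reprogramming medium, and day 0 was mouse embryonic fibroblasts (MEF) of passages 1 to 3. All 8 stages share 1 origin, E13.5 embryos of the strain given as 129XOG2, and OG2 cells, as background knowledge, carry a fluorescent reporter under Pou5f1 control. The labels name 2 samples per stage, 16 in all, but the values used here are 1 peak list per stage, so there is no spread between replicates, no test was run and every comparison is between single lists.

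Open sites away from gene ends are often enhancers, stretches of DNA where transcription factors bind and act on a promoter at a distance. In mouse pluripotent cells, OCT4, SOX2 and NANOG bind such sites together with factors of the naive state such as ESRRB, KLF4, TFCP2L1 and NR5A2, and many of these factor genes are themselves flanked by several enhancers. LIF acts through STAT3, and inhibitors of GSK3 and MEK relieve repression by TCF7L1 and block ERK signalling, which together hold cells in the naive state.

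Sequence could be shown where an iPSC-only distal region held a transcript start listed by RefSeq, most often of a long noncoding RNA, since ends of coding genes were left out by the rule. 4 such 300-base windows are printed, each beginning 250 bases before the start and written 5′ to 3′ on the strand of the transcript (RefSeq, GRCm38.p6, the assembly behind mm10). They were chosen after their values were seen, to show an inner start of a naive pluripotency gene, a transcript named for pluripotent cells and the 2 octamer windows in regions that passed the depth screen described below. Nr5a2, a nuclear receptor of the naive state, has the window chr1:136953581-136953880 on the minus strand, inside the gene and wholly inside a region of summit pileup 92. Platr21, a noncoding RNA of the pluripotency-associated transcript series, has the window chrX:139357689-139357988 on the minus strand, in a region of pileup 18. Gm39103, a noncoding RNA gene, has the window chr7:134022530-134022829 on the plus strand, in a region of pileup 62 that lay 138.4 kb from the nearest end of a coding gene. Arhgef2, which encodes an exchange factor for RHOA, has the window chr3:88615893-88616192 on the plus strand, with 292 of its 300 bases in a region of pileup 32. Capitals mark a match to the KLF motif GGGCGTG in Nr5a2 and to the octamer ATGCAAAT, bound by OCT4 and other POU factors, on either strand in the other 3.
Nr5a2: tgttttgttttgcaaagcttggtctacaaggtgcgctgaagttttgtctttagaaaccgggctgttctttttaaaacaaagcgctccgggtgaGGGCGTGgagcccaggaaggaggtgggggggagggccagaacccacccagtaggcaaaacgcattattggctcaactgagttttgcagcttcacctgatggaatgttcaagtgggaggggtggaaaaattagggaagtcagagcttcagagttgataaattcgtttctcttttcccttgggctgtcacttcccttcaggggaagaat
Platr21: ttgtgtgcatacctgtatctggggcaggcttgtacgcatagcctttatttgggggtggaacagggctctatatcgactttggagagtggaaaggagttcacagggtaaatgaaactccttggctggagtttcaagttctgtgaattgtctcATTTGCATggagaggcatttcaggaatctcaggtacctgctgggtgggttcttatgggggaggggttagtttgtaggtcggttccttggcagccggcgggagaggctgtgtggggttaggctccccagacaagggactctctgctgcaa
Gm39103: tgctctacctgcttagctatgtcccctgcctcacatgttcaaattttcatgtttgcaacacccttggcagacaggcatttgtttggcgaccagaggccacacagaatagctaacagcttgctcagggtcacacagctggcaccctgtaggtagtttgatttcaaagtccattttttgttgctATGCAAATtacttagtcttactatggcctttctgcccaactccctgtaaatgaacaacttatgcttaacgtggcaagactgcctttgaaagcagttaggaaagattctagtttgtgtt
Arhgef2: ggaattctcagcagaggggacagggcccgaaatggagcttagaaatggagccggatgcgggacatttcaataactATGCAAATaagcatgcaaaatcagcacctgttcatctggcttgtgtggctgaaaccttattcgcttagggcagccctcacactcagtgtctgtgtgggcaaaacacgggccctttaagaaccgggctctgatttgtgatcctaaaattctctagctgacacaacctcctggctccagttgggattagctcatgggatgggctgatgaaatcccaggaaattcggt
The first base of the match stood 157 bases before the start of Nr5a2, 99 before that of Platr21, 68 before that of Gm39103 and 175 before that of Arhgef2. The summits of the Gm39103 and Arhgef2 regions lay more than 250 bases before the start, outside the printed windows. Their pileups of 62 and 32 were thus not read at the printed bases or at the octamers. The summits of the Nr5a2 and Platr21 regions lay inside the printed windows. A match is a description of letters and not evidence of binding.

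The iPSC-only distal regions were mostly small and shallow. Their summit pileup, the number of reads or fragments stacked at the highest point and recovered from the authors' fold and −log10 p, was 8 at the lowest, 17 at the median, 38 at the 90th percentile and 177 at the highest. Distal iPSC regions first open at days 8 to 12 (4326 regions) and all distal iPSC regions also found in another list (15963, called shared below, which include the late ones) each had a median of 21. The median width was 503 bp in iPSC-only regions, against 715 bp in those first open at days 8 to 12 and 961 bp in all shared regions, where merging over several lists adds width. The authors' fold over local background had a median of 4.83 in iPSC-only regions, 5.48 in those first open late and 5.34 in all shared regions. Distal regions open at day 0 only were smaller and shallower still. Their medians in the day 0 list were a pileup of 13, a width of 417 bp and a fold of 4.33. Small size and low pileup were thus not particular to iPSC-only regions. At the lowest pileup, 8, there were 352 iPSC-only regions.

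The deeper a distal iPSC region was, the less often it was iPSC-only. At a pileup of 8 to 14, 68.6% of 11839 distal iPSC regions were in the iPSC list alone. The share was 55.3% at 15 to 24, 48.4% at 25 to 39, 41.3% at 40 to 59, 36.3% at 60 to 99 and 20.4% of the 270 regions at 100 or more. The 55 iPSC-only regions in that last bin are those with the deepest signal. In bulk cells, a site open in fewer cells and a site less open per cell cannot be told apart.

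**Figure D1:**
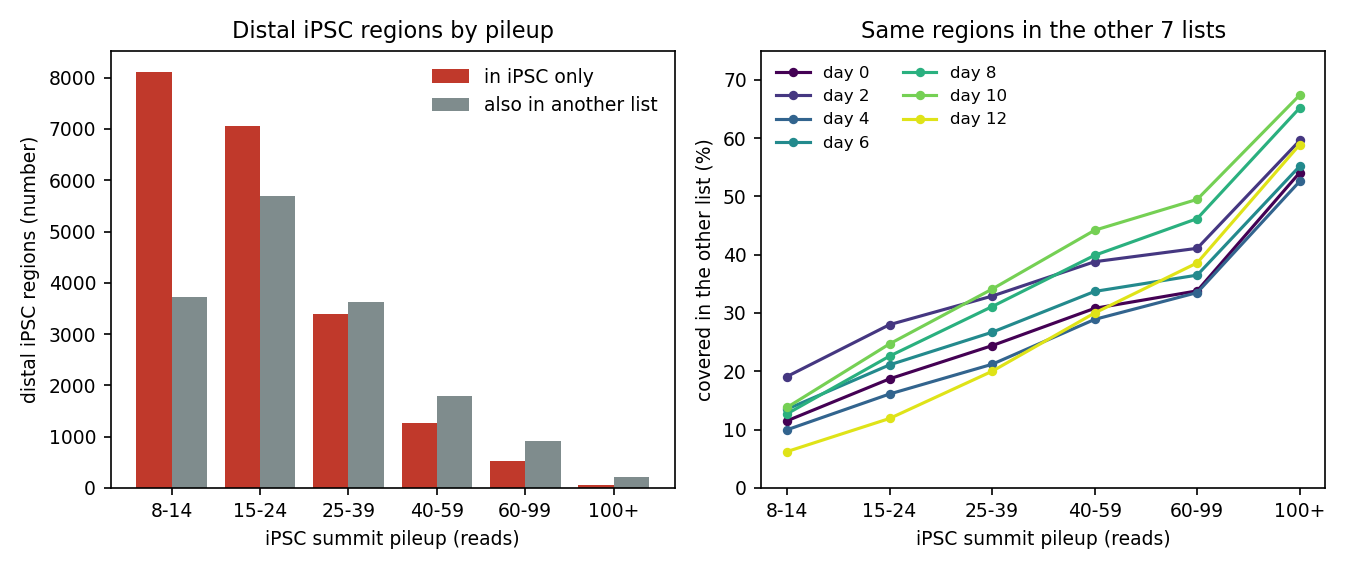
Distal iPSC regions by summit pileup (x axis, reads). Left, the number in the iPSC list only (red) and also in another list (grey); right, the share covered in each of the other 7 lists. iPSC-only regions outnumber the others below a pileup of 25, and the share covered rises with pileup in all 7 lists.

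Depth differed between the lists. The background pileup, the lowest local background of a list, was 1.96 in the day 0 list, 3.08 in that of day 2, 1.23 for day 4, 2.12 for day 6, 0.682 for day 8, 0.968 for day 10, 0.248 for day 12 and 1.90 for iPSC. Each iPSC-only distal region was scaled by the ratio of these values and set against the lowest −log10 p in the other list, as a computed screen and not a measurement. The scaled summit would have passed in the lists of day 0 for 99.9% of the regions, day 2 for 100%, day 4 for 88.4%, day 6 for 99.8%, day 8 for 56.8%, day 10 for 74.6% and day 12 for 14.1%. In all 7 lists, 2885 regions would have passed, which is 14.1% (95% Clopper-Pearson interval 13.7 to 14.6, counting error only, as for all intervals here), with a median pileup of 41.

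**Figure D2:**
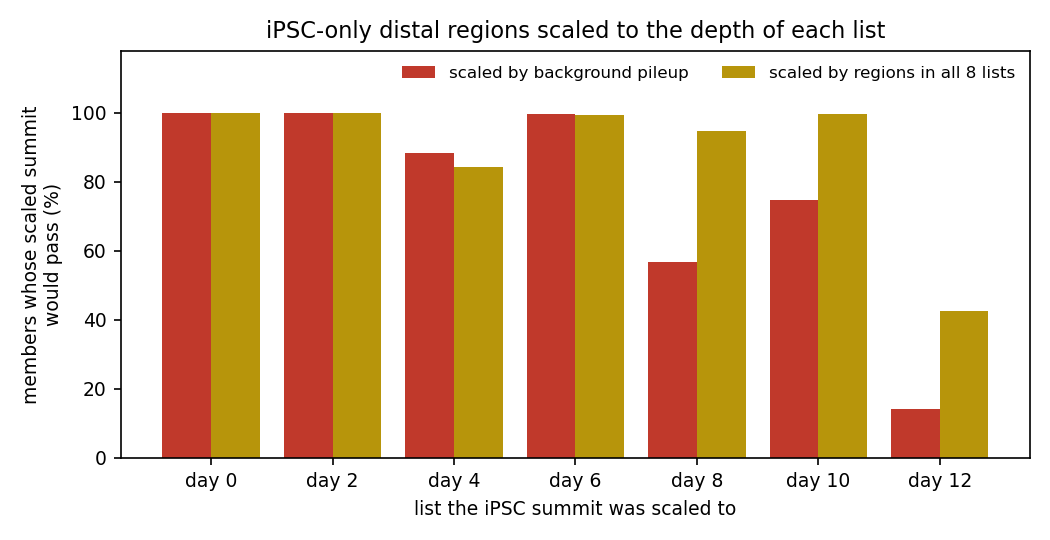
Share of iPSC-only distal regions (y axis, %) whose iPSC summit, scaled to the depth of each list (x axis), would pass that list's lowest −log10 p. Red bars scale by background pileup, yellow bars by the median summit pileup of regions in all 8 lists. Day 12 is lowest on both scales, with 14.1% and 42.6%.

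The screen at day 12 was stricter than the list itself. Of 5286 distal regions found both in iPSC and at day 12, 37.1% would have passed when scaled from iPSC. The same share was 77.9% at day 8, 90.4% at day 10 and 95.7% at day 4. With a scale taken from the 8975 regions covered in all 8 lists, 8705 iPSC-only regions (42.6%, 42.0 to 43.3) would have passed everywhere. The lists of days 0, 2 and 6 had a background pileup above that of iPSC, and those of days 4, 8, 10 and 12 one below it. By the median pileup of regions in all 8 lists, the factor against iPSC was 1.02 at day 10 and 0.953 at day 6. Which lists were shallower than iPSC thus depended on the scale. The part of depth in the absence of a peak from the lists of days 4, 8, 10 and 12 was not tested. Of the 20411 regions, 600 (2.94%) lay within 200 bp of a peak of another list and 2908 (14.2%) within 1 kb, and the median gap to the nearest such peak was 4.75 kb. At the edge of the distance rule, the 66 iPSC-only regions that cleared the 1 kb limit by up to 100 bp had a median pileup of 19, and the 67 iPSC-only regions that missed it by less than 100 bp had 16.

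Close to an equal number of iPSC-only distal regions lay inside and between coding genes, and many lay far from any. Inside a coding gene span were 10071 (49.3%, 48.7 to 50), against 49.1% (47.6 to 50.6) of distal iPSC regions first open at days 8 to 12, 51.6% (50.8 to 52.4) of all shared distal iPSC regions and 51.3% (50.2 to 52.3) of 8775 distal regions open at day 0 only. More than 100 kb from any coding gene were 3350 (16.4%, 15.9 to 16.9), against 11.2% (10.3 to 12.2) of those first open late, 8.65% (8.22 to 9.10) of all shared regions and 18.4% (17.6 to 19.2) of day 0 only regions. Between genes, the median distance to the nearest gene was 45.5 kb for iPSC-only regions, 28.7 kb for regions first open late, 24.7 kb for all shared regions and 55.8 kb for day 0 only regions. Regions found in 1 end stage only, iPSC or day 0, thus lay farther from genes than iPSC regions shared with other lists.

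The difference in distance was also there at like depth. At a pileup of 40 or more, 13.8% (12.3 to 15.5) of 1835 iPSC-only regions lay more than 100 kb from a gene, against 7.96% (6.16 to 10.1) of those first open late and 6.72% (5.84 to 7.69) of all shared regions. At 8 to 14 the shares were 17.9% (17.1 to 18.7), 15.5% (13.3 to 17.9) and 11.4% (10.4 to 12.4) for iPSC-only, late and all shared regions, and there the intervals of iPSC-only and late regions overlapped. The share inside genes at 8 to 14 was 48.1% (47.0 to 49.2) for iPSC-only regions and 47.3% (45.7 to 48.9) for all shared regions. At 40 or more it was 51.0% (48.7 to 53.3) for iPSC-only regions and 56.2% (54.4 to 58.1) for all shared regions, and there the intervals did not overlap. Late regions had 44.6% (41.5 to 47.8) inside genes at 8 to 14 and 50.3% (46.8 to 53.9) at 40 or more. The lower share at 40 or more was thus not particular to iPSC-only regions.

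**Figure D3:**
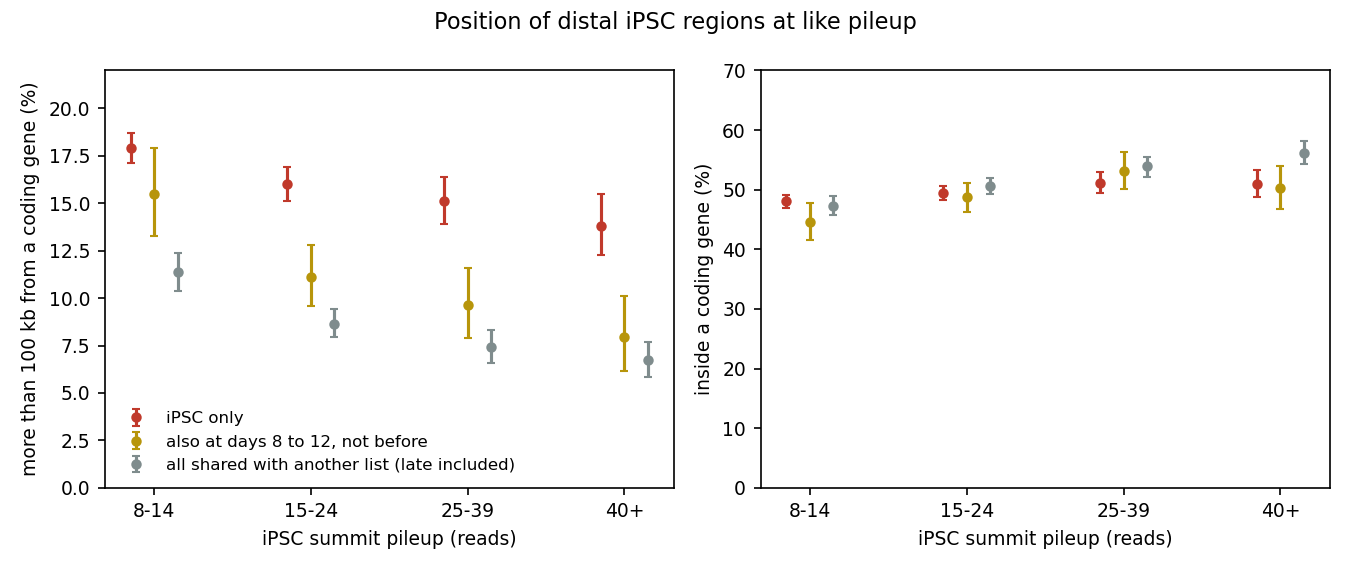
Position of distal iPSC regions in 4 bins of summit pileup (x axis, reads). The y axes give the share more than 100 kb from any coding gene (left) and inside a coding gene (right), with 95% Clopper-Pearson intervals. iPSC-only regions (red) lie above the late regions (yellow) and all shared regions (grey, late ones included) in every bin on the left, from 17.9% in the shallowest to 13.8% in the deepest bin.

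On the X chromosome, 469 of 711 distal iPSC regions were iPSC-only (66.0%, 62.3 to 69.4), against 55.9% (55.4 to 56.4) over the 19 autosomes, which ranged between 52.0% and 59.1%. Their median pileup was 16 on X, within the range of the autosomes. X held fewer such regions for its length, 2.75 per Mb, against 6.46 to 10.2 per Mb on the autosomes, and the same was so for day 0 only regions, with 1.04 per Mb on X and 2.74 to 4.63 on the autosomes. Of the distal iPSC regions on X, 17.4% (14.7 to 20.4) were covered at day 6, against 21.7% (21.3 to 22.1) on autosomes, and 23.9% (20.8 to 27.2) at day 2, against 27.8% (27.3 to 28.3). At days 0, 4, 10 and 12 the intervals of X and autosomes overlapped, and at day 8 they met at 23.3%. The number of X chromosomes in each culture and its part in these values were not tested.

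Many iPSC-only distal regions lay in groups. Joined within about 13 kb, 5842 of them (28.6%, 28.0 to 29.2) fell into 2579 clusters, of which 125 held 4 or more and 27 held 5 or more. Their median pileup was 18, against 16 for those that lay alone. The share in clusters was 9.66% for distal iPSC regions first open at days 8 to 12, 28.6% for all shared distal iPSC regions and 12.9% for day 0 only regions, but a class with more regions clusters more often at any spacing. Within 10 kb of a distal region first open at days 8 to 12 lay 5.27% (4.97 to 5.59) of iPSC-only regions and 5.30% (4.84 to 5.79) of day 0 only regions, so both classes lay near late-opening sites in like shares, with median distances of 154.6 kb for iPSC-only and 188.7 kb for day 0 only regions.

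There were 2 clusters of 7 regions and 7 clusters of 6. At Tcf7l1, the repressor of WNT target genes that CHIR99021 acts on through beta-catenin, 7 regions spanned 45.8 kb with pileups up to 43. At Sox1, a neural SOX gene, 7 regions spanned 49.9 kb, with a highest pileup of 28. At Tet2, which encodes an enzyme that oxidises methylated cytosine, 6 regions spanned 46.5 kb and reached 102. Other clusters of 6 lay at Aebp2, which encodes a subunit of Polycomb complex PRC2, and its neighbour Plekha5, and at Tcl1b2 and Glrx5, and the remaining 4 lay at Bclaf3 and Map7d2, Aard and Gm52217, Pawr, and Adk and Kat6b. Other iPSC regions lay among those of Tcf7l1 (1) and of Aebp2 and Plekha5 (2), and none lay among those of the remaining clusters named here.

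Each region was assigned to the nearest coding gene span within 100 kb, which placed 17061 (83.6%). Of 21887 genes, 7726 (35.3%) had at least 1 iPSC-only distal region, 748 (3.42%) had at least 5 and 100 (0.457%) had at least 10. The median over all genes was 0, the mean 0.780, and the density 9.32 per Mb of the stretch nearest to the genes, against 3.91 per Mb for day 0 only regions. Counts of the gene lists below are read against these values. The nearest gene is a label of position and not a target.

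The naive pluripotency factors had the densest iPSC-only distal regions of the 18 gene lists. Their 15 genes held 81, with a median of 6 per gene, and 14 of the 15 had at least 1. The density was 37.9 per Mb, against 3.74 per Mb for day 0 only regions at the same genes. These genes also held 19 of the 4326 distal iPSC regions first open at days 8 to 12, beside 81 of the 20411 iPSC-only ones. The density at naive genes was therefore not particular to iPSC-only regions. The core factors Pou5f1, Sox2 and Nanog held 8, or 30.3 per Mb. Of these 89 regions, 15 would have passed the depth screen in all 7 lists, beside 2885 (14.1%) of all 20411.

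Nr5a2 had 11 iPSC-only distal regions, 6 of them inside the gene. It had 0 day 0 only regions in its stretch of 313 kb, where few would lie at the 3.91 per Mb over all genes. The deepest of the 11, with a pileup of 92, held the inner start whose sequence is shown above and summited 6.59 kb from the outermost start. The other 10 lay between 42.8 kb upstream and 216.3 kb past that start, with pileups of 8 to 31, so 1 site stood above the other iPSC-only regions by pileup. Local background at that site was high too (19.4), and its fold was 4.55, against 2.95 to 6.46 in the other 10. Another iPSC region, found in further lists as well, lay 10.9 kb from the start with a pileup of 53.

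Esrrb, an orphan nuclear receptor of the naive state, had 9, of which 8 were inside the gene. 4 of them lay close together, with summits 136.2, 137.8, 140.9 and 143.5 kb from the outermost start and pileups of 51, 89, 92 and 86. Their local background was high as well, so the authors' fold was 2.19, 3.48, 2.80 and 3.56. By pileup, the regions of Nr5a2 and Esrrb thus differed in form: among iPSC-only regions, 1 deep site near a start in Nr5a2 and a block of deep sites far inside the gene in Esrrb. Fold did not single out the same sites in either gene.

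Tfcp2l1, a transcription factor of the naive state downstream of LIF, had 6, led by a site of pileup 116 (fold 6.19) inside the gene and one of 73 (fold 4.16) that lay 1.20 kb upstream. At 116 it was the deepest iPSC-only distal region of any core or naive gene. Prdm14, which represses FGF signalling and DNA methylation genes in naive and germ cells, had 5, with pileups of 94 and 66 in the deepest. Zfp42, the gene of REX1, a widely used marker of naive cells, had 6, with the deepest (58) centred 13.9 kb upstream of the start.

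All 10 iPSC-only distal regions of Mycn, the MYC family gene of pluripotent and neural cells, lay on its downstream side, with summits 14.5 to 100.8 kb from the start. The nearest of them was also the deepest, with a pileup of 75, and the other 9 had 11 to 27. Tfap2c, which encodes the AP-2 factor of trophoblast, germ cells and naive cells, had 9, and its deepest (68) held the start of the noncoding RNA Gm36038, a gene named after its value was seen. Klf5, a KLF factor of naive cells and trophectoderm, had 6, with 79 in the deepest, and Zfp281, a zinc finger factor that takes part in leaving the naive state, had 6, with 69.

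Sox2 had 6, of which 1 had a pileup of 50 and lay 15.8 kb downstream, and the other 5 had 8 to 22. Klf4 had 3, the deepest with a pileup of 73 (fold 3.54) at 48.8 kb downstream, and Klf2 had 2, with 63 (fold 3.86) at 2.66 kb upstream. Tbx3, a T-box factor of naive cells, had 6, none over a pileup of 26. Each of these genes thus had fewer such regions than Nr5a2 and Esrrb, but in a shorter stretch nearest to the gene. That stretch was 198 kb for Sox2, 168 kb for Klf4, 39 kb for Klf2 and 166 kb for Tbx3, against 313 kb for Nr5a2 and 268 kb for Esrrb. In the same order, the median pileups were 10.5, 17, 36.5 and 15, against 17 and 44.

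4 genes of the core and naive lists had a single iPSC-only distal region. Pou5f1 had 1 with a pileup of 38, 15.3 kb upstream, Nanog 1 with 15, 12.7 kb upstream, Nr0b1 1 with 36 and Sall4 1 with 10. Gbx2 had 0, and 0 distal iPSC regions of any kind were assigned to it. At Pou5f1 and Nanog the stretch nearest to the gene is short, 18 and 48 kb, which limits the count. The ends of Pou5f1 and Nanog were covered by an iPSC peak, and of the 15 naive genes 11 had a covered end in iPSC and 7 at day 0.

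**Figure D4:**
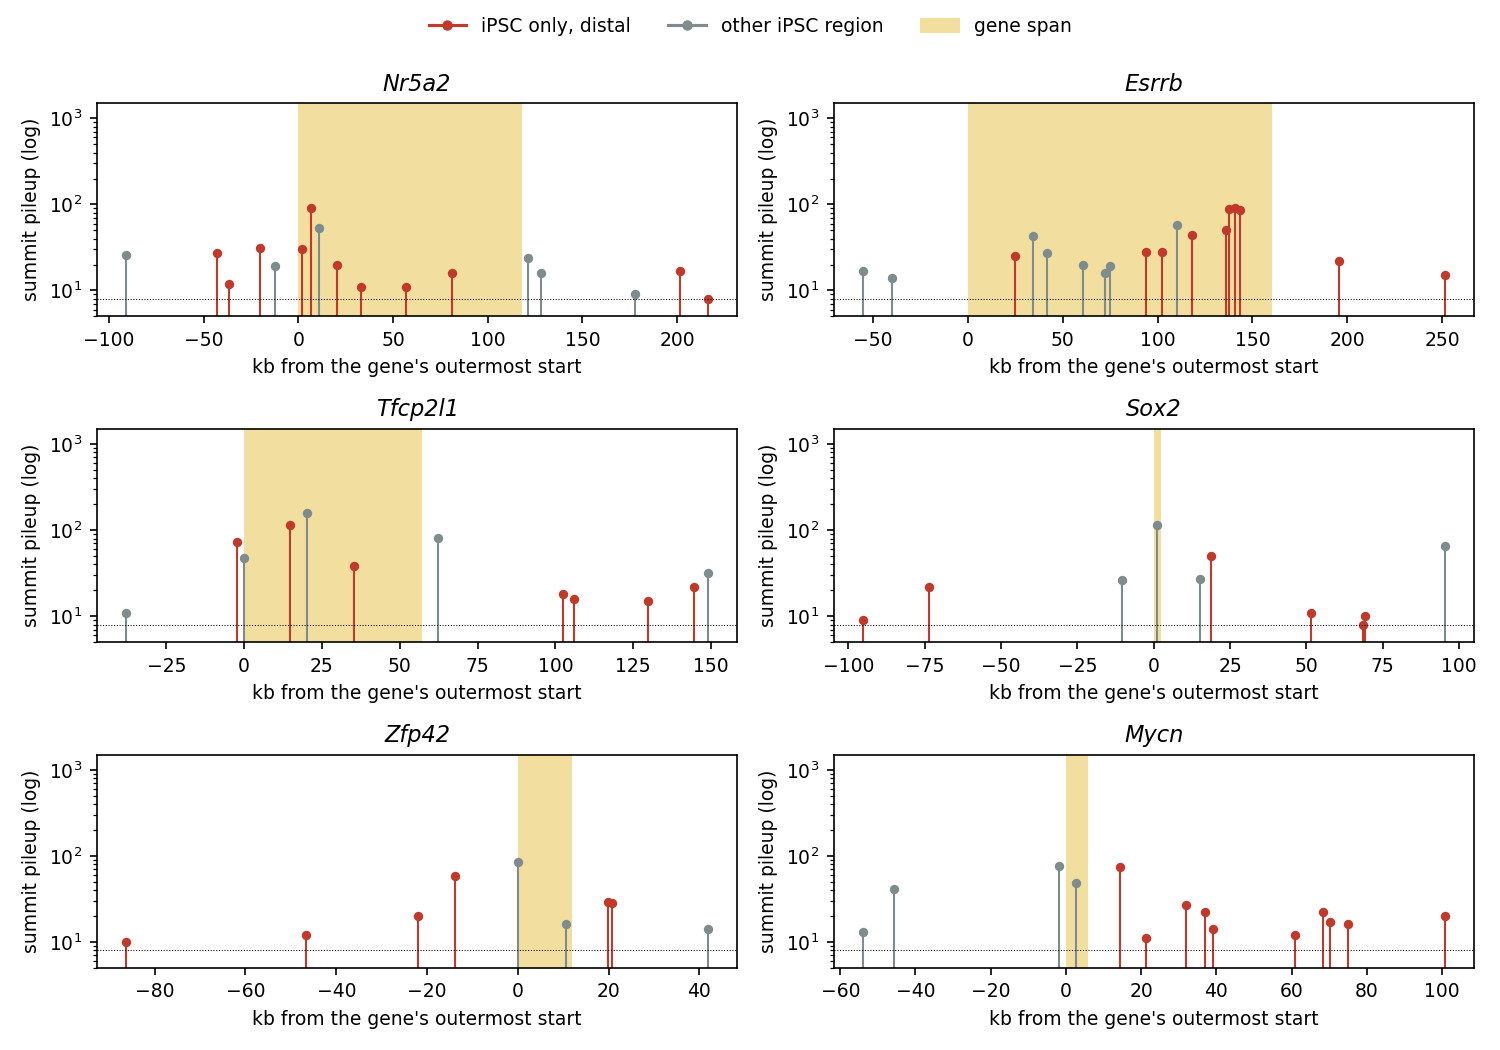
iPSC regions around 6 genes of the pluripotency network, by distance of the summit from the gene's outermost start (x axis, kb, positive in the direction of transcription) and summit pileup (y axis, log scale). Red marks iPSC-only distal regions, including any nearer to another gene, grey other iPSC regions, yellow the gene span, and the dotted line the lowest pileup of 8. All red sites of Mycn lie downstream, and 4 of Esrrb stand together inside the gene.

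Other genes of pluripotent cells held 37 in 15 of 22 genes, or 25.4 per Mb. Sgk1, a kinase gene, had 6, Trim71, whose product binds RNA and is a target of let-7, had 5, and Fgf4, the FGF ligand of the early embryo, had 4. Jam2, a junction adhesion gene, had 4, of which the deepest had a pileup of 123. The formative and primed genes held 23 in 6 of 11 genes (17.0 per Mb), and 10 of the 23 belonged to Foxd3, a forkhead factor of pluripotent and neural crest cells. Otx2, a homeobox gene of the formative state, had 4, with 75 in the deepest.

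Signalling genes were unequal. The WNT pathway held 41 in 12 of 14 genes (19.0 per Mb, and 7.90 per Mb for day 0 only regions), of which Tcf7l1 had 10 and its relative Tcf7l2 had 7, while Axin2, a WNT target that feeds back on the pathway, and Gsk3b, the kinase blocked by CHIR99021, had 4 each. The FGF and ERK pathway held 38 in 13 of 14 genes (21.7 per Mb, and 7.41 per Mb for day 0 only regions): Spred2, an inhibitor of ERK signalling, had 8, and Dusp6, a phosphatase of ERK, had 4. The LIF and STAT3 pathway held 11 in 6 of 11 genes (10.0 per Mb), near the density over all genes, with 4 at Lifr, the LIF receptor, and 1 at Il6st, its partner gp130. At these LIF genes day 0 only regions were denser, with 12.8 per Mb. The Nodal and activin pathway held 11 in 7 of 12 genes (11.0 per Mb).

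Genes that act on chromatin also held dense iPSC-only distal regions, and the chromatin regulators were above all genes in day 0 only regions too (6.90 against 3.91 per Mb). The DNA methylation machinery held 21 (25.9 per Mb), but in 5 of 12 genes: Tet2 had 11 and Tet1 had 7, while Dnmt1 and Dnmt3a, which encode methyltransferases, had 1 each. Thus 18 of the 21 lay at genes for enzymes that oxidise methylated cytosine. The chromatin regulators held 81 in 15 of 19 genes (25.4 per Mb), with 20 at Arid1b, a BAF remodeller subunit, 16 at Morc1, which silences transposons in male germ cells, 8 at Chd7, a remodeller, and 7 at Mtf2, a partner of PRC2. Morc1 had 0 day 0 only regions, and 5 of its regions, a group picked after its values were seen, formed a cluster of 13.0 kb with pileups up to 88.

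Lists of most other lineages lay between the density over all genes and those of the pluripotency lists. Neural genes were higher, with 25 in 7 of 10 genes (31.3 per Mb), but 9 of the 25 lay at Sox1. Germline genes held 23 (16.7 per Mb, led by Kit with 8, the receptor of germ and blood stem cells, and Prdm1 with 6, a repressor that specifies germ cells), epithelial genes 14 (14.8 per Mb), trophoblast genes 16 (14.2 per Mb), primitive endoderm genes 25 (13.0 per Mb) and mesoderm genes 10 (10.5 per Mb). The median per gene was 0 in germline, epithelial and mesoderm lists, as over all genes, and 1 in the trophoblast and primitive endoderm lists. Fibroblast and mesenchyme genes held 31 iPSC-only and 40 day 0 only regions, 7.54 and 9.73 per Mb. Fn1, the fibronectin gene, had the most of that list, 6, with 103 in the deepest, and Zeb2, a repressor of epithelial genes, had 5. The iPSC grew on feeder cells, whose share of the cells collected is not given: ends of 13 of the 26 fibroblast genes were covered in iPSC, against 19 at day 0, and the part of feeder cells in the iPSC-only regions was not tested. Housekeeping genes held 3 (6.33 per Mb), all at Ywhaz, a gene of signalling adaptors.

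**Figure D5:**
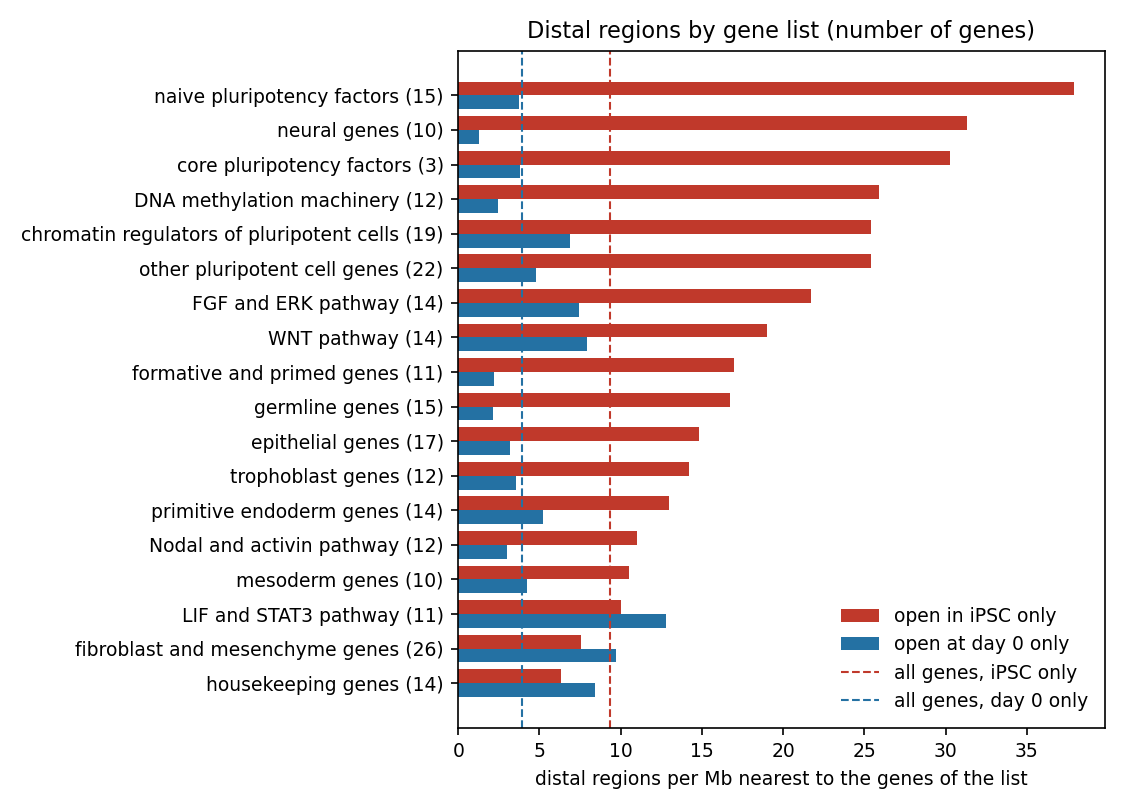
Distal regions per Mb of the stretch nearest to the genes of each list (x axis), for regions open in iPSC only (red) and at day 0 only (blue), with the density over all genes as dashed lines. Numbers of genes stand in brackets. Naive factors have 37.9 iPSC-only regions per Mb, against 9.32 over all genes, and fibroblast genes 7.54.

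The highest counts of single genes lay at long genes. Tenm4, a teneurin gene of 739.9 kb that takes part in neuronal wiring, had 30 iPSC-only distal regions, 26 of them inside the gene. Dpp6, which encodes a potassium channel subunit, had 23, Magi1, a junction scaffold, 22, Tenm3, a second teneurin, 22, Auts2, a gene of brain development, 21, and Pde4d, a cAMP phosphodiesterase, 21. Arid1b had 20, Msi2, an RNA-binding Musashi gene, and Pard3, a polarity gene, 19 each, and Arl15, Etl4 and Macrod2 had 18 each. Macrod2 spans 1997.7 kb, so its density, 0.819 per 100 kb of gene and flanks, was low.

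Per length the order changed, and it depends on how the length is taken. Over the gene span and fixed flanks of 100 kb, Foxd3 led with 10 regions, or 4.94 per 100 kb, none of them inside the gene, which is 2.37 kb long. Mycn followed with 4.86, Etnk1, an ethanolamine kinase gene, with 4.55, Sox1 with 4.41, Myc with 4.39 and Tfap2c with 4.23. Sall1, a zinc finger gene, had 4.15, Morc1 4.00, Tet2 3.91 and Rybp, which encodes a subunit of PRC1, 3.86. Over the stretch nearest to the gene, Mtf2 (7 regions in 85 kb) and Trim71 (5 in 63 kb) were denser than Foxd3 (10 in 127 kb). So was Fgf4 (4 in 25 kb), which has fewer than the 5 regions asked for in the ranking. Of these 10, Foxd3, Mycn, Etnk1, Sall1, Tet2, Tfap2c and Morc1 had 0 day 0 only regions, Sox1 and Myc had 1 each, and Rybp had 2. The genes with 0 had nearest stretches of 127 kb (Foxd3) to 302 kb (Morc1). At the 3.91 per Mb over all genes, few or none would lie in stretches of that length.

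The deepest iPSC-only distal regions were not at the genes of the pluripotency lists. The first, with a pileup of 177 and the authors' fold of 16.8, lay inside Tmbim4 (chr10:120216815-120217314), a gene of a membrane protein that limits cell death. A region of 169 lay inside Chd6, a remodeller gene (chr2:160957453-160958076), one of 161 inside Fggy, a carbohydrate kinase gene (chr4:95684627-95685352), and one of 151 inside Immp2l, a mitochondrial peptidase gene (chr12:41729679-41730126). The deepest 10 by pileup and by score made 12 regions, 8 of them in both rankings, and all 12 would have passed the depth screen in all 7 lists. The screen is computed from the same pileup and background, so that pass follows from the ranking and is no further support. 5 more of the 12 lay outside any gene but within 100 kb of one, by Clybl, Tns3, H2az1, Syt9 and 1110002E22Rik, the farthest 84.0 kb from H2az1, which encodes the histone variant H2A.Z.

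A RefSeq transcript start lay in few of them. Among 19489 iPSC-only distal regions on the chromosomes with promoter sequence used here, 232 held a start (1.19%, 1.04 to 1.35), against 3.28% (2.76 to 3.87) of distal iPSC regions first open at days 8 to 12, 10.9% (10.4 to 11.4) of all shared regions and 0.533% (0.389 to 0.713) of day 0 only regions. They belonged to 233 genes, 182 for long noncoding RNAs and 51 coding. The deepest was at Gm13580, a noncoding RNA gene on chromosome 2, with a pileup of 101. Celrr, like Gm13580 picked after its values were seen, is a noncoding RNA gene on chromosome 1 and lay 216.6 kb from a coding gene end with a pileup of 78. Of 13 Platr genes, looked up after the first was seen, Platr6, Platr9 and Platr21 started in an iPSC-only distal region (23.1%), and the 3 include the one that led to the lookup. Platr22 and Platr26 started in shared distal iPSC regions. Of all long noncoding RNA genes, 182 of 9533 (1.91%) started in an iPSC-only distal region. The pileups at Platr6, Platr9 and Platr21 were 32, 27 and 18.

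The median ratio of observed to expected CpG in the start windows of iPSC-only regions was 0.303, against 0.277 in windows of regions first open late, 0.602 in those of all shared distal iPSC regions, 0.203 in those open at day 0 only and 0.384 over all windows. Noncoding genes, which the rule favours here, had a median of 0.245 over all their windows.

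Motifs were searched on both strands in 1 window per region, as letters only, and the windows are a small and particular sample of the distal regions. The octamer ATGCAAAT was in 8 of 232 windows of iPSC-only regions (3.45%, 1.50 to 6.68), in 1.47% of those first open late, in 2.15% of all shared distal iPSC windows, in 0 of 45 day 0 only windows and in 1.75% of all windows. The ESRRB motif TCAAGGTCA was in 3 (1.29%, 0.267 to 3.73), against 0.407% of all windows. Both intervals include the share of all windows, so a difference from it was not detectable at these counts.

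AP-1 sites of the form TGANTCA, bound by JUN and FOS factors, were in 7.33% (4.33 to 11.5) of iPSC-only windows, against 24.4% (12.9 to 39.5) of the 45 day 0 only windows and 7.93% of all windows. TEAD letters, GGAATG, were in 19.0% (14.1 to 24.6), against 33.3% (20 to 49.0) at day 0 only and 14.6% of all windows. GATA letters, AGATAA, were in 8.62% (5.35 to 13.0) of iPSC-only windows, against 18.4% (12.3 to 25.9) of windows of regions first open at days 8 to 12 and 11.4% of all windows. The KLF letters GGGCGTG were in 6.90% of iPSC-only windows and 8.60% of all windows, RUNX letters TGTGGTT in 4.74% and 5.37%, SOX letters CATTGTT in 4.31% and 3.87%, and the CTCF core in 1.72% and 0.670%. Most iPSC-only windows are of noncoding genes, so all windows are not a matched baseline. Over noncoding windows, where a gene can have several, KLF letters were in 3.90% and GATA letters in 14.0%. Over coding windows they were in 10.9% and 9.65%. For KLF the direction of the difference thus depends on the baseline. Of these motifs, the interval for iPSC-only windows lay apart from that of another class only for AP-1 against day 0 only windows, which had few windows.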

How the data were processed

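ATAC-seq was measured in 16 samples of 8 stages, and the authors deposited 1 peak list per stage. The tools were MACS2 2.1.2, deepTools 3.4.3, SAMtools, Bowtie2 2.2.5 and fastp 0.20.1, and the build mm10, per the submitters' processing notes. Their roles and settings, any shift for the Tn5 offset and the way a stage's samples became 1 list are not given in the sources used here.

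Per the file headers, the deposited lists give per peak a score, a fold enrichment (a ratio of pileup over local background) and −log10 p-values and q-values (−log10 scale). These are the authors' values and were used to rank peaks inside each list and to work out pileups. A whole-number pileup and a local background were solved from the fold and −log10 p, and matched the deposited −log10 p within 0.001 for nearly every peak. Read totals were not used, so depth is known only as background pileup.

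Peaks on chromosomes 1 to 19, X and Y were merged on an overlap of 1 bp, which left out 36 to 57 peaks per list. Gene positions came from RefSeq GRCm38.p6 (21887 protein-coding genes). Intervals are 95% Clopper-Pearson. The code was checked on simulated peaks and regions. Python 3.11.15, NumPy 2.4.6, pandas 2.3.3, SciPy 1.17.1 and Matplotlib 3.10.9 were used. Planned motif counts over whole regions were not run, since no genome sequence was used here, and promoter windows were searched in their place.

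Named genes were all core and naive factors, up to 4 genes with the most regions in each other list, the 12 genes with the most regions and the 10 densest among genes with at least 5. Named regions were the deepest 10 by pileup and by score, the 5 largest clusters (ties by highest pileup) and the deepest region at each core or naive gene. The clusters tied in size with the last of the 5 were named as well. Other names outside this rule are said in the text to have been picked afterwards. The regions, lists and rules were chosen with earlier results of these data known.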

Additional observations from a re-analysis of the deposited data

How the results depend on the processing

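Of 55 values recomputed, 32 stayed within the limit set for them and 23 did not. That limit was 1.5 times for a count and the 95% interval for a share, so it was far narrower for shares. When only day 0 had to be empty there were 29341 regions, 127 of them at core and naive genes, and when only days 0, 2 and 6 had to be empty there were 25023 and 112, all within the limit. With the better-scored 50% of each list there were 9881 regions, 48.5% of them in gene bodies, 14.6% in clusters, 45 at core and naive genes and 344 past the depth screen. With lists cut to the length of the shortest there were 12394 regions, 18.3% in clusters and 57 at those genes. Merging peaks within 1 kb gave 48.4% in gene bodies. The share in clusters was 29.7% with an overlap of 50%, applied to iPSC peaks, 27.8% with merging within 200 bp, 22.3% within 1 kb, 27.4% with a 2.5 kb gene end window and 29.5% without the day 2 list, 38.3% when only day 0 had to be empty, and 10.1% and 46.8% with joining distances of 5 and 25 kb. Within 20 kb of a gene, 37 regions lay at core and naive genes. The depth screen gave 12224 regions without the day 12 list, 29320 when only day 0 had to be empty and 8705 with the scale from regions in all 8 lists. An alternative chosen after seeing the data, in which only days 0, 2 and 6 had to be empty, gave 33.7% in clusters and 24963 past the screen. The screen's count thus rested on the day 12 list, whose background pileup was the lowest.

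No paired analysis was possible because 1 list stands for each stage, and there was no replicate to leave out. Depth limits the shallow regions most, and no value here carries the spread between cultures.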
